A study of Rattus norvegicus with 22 samples.

Results

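The miR-26 family was followed in small RNA libraries from adult male rats of the Long Evans strain, an outbred laboratory stock. The tissue was the hippocampus. Members were all names in the tables with the number 26 and the letter a or b, from either arm of the hairpin. This rule found 3 of 468 names, namely rno-miR-26a-5p, rno-miR-26b-5p and rno-miR-26b-3p, written without the species prefix below. The rats were 14 weeks old and came in 2 groups of 11 libraries. The treated group was given chlorpyrifos (CPF), an insecticide of the organophosphate class and an inhibitor of acetylcholinesterase. The daily dose was 10 mg/kg, injected subcutaneously on 21 days. The control group was injected with peanut oil, the vehicle, in the same way. The RNA was total RNA from the CA1 region. The labels name no individual animals, so each p-value reflects the spread among these libraries, which may be technical in part. They do not say which libraries come from rats that went through fear conditioning.

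MicroRNAs (miRNAs) are short RNAs that guide Argonaute proteins to messenger RNAs, mainly through the seed near their 5′ end, and lower the output of those messages. The miR-26 genes lie inside genes of the CTDSP family, small phosphatases that work with the repressor REST to keep neuronal genes silent in other cells. miR-26b is known to act back on a CTDSP host transcript as neurons form, and miR-26a is known to target Ezh2. Together with miR-384-5p, miR-26a is also known to affect the maintenance of long-term potentiation in hippocampal neurons.

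The mature sequences show why the family is counted as a unit and how close its 5p members are. They are given 5′ to 3′ from RefSeq (build GRCr8), with the seed (bases 2 to 8) in capitals.
miR-26a-5p: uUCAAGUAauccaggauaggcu
miR-26b-5p: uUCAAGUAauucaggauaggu
miR-26b-3p: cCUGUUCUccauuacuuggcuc
miR-26a-3p: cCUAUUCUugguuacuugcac
The 5p arms carry the same seed. Counted from 1 at the 5′ end, and with the base of miR-26a first, they differ by C11U and C21U over the 21 bases compared, an identity of 90.5%, and miR-26a-5p is longer by its last base (22 against 21). Both differences lie outside the seed. The 3p arms have different seeds, which differ by A4G, and an identity of 66.7% without gaps. miR-26a-3p has no row in the tables read here, so no value is given for it.

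The hairpins from which the arms are cut are shown next, because they place the abundant and the scarce arms on their precursors (mature arms in capitals).
Mir26a: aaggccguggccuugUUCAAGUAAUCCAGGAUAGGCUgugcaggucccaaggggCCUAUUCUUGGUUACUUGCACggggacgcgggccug
Mir26b: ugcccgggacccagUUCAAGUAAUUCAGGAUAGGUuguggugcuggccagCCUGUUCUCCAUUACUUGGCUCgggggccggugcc
The hairpins are 90 and 85 bases long, and 68.5% of the positions of their gapped alignment were identical. In the RefSeq gene table Mir26a lies within the span of Ctdspl and Mir26b within that of Ctdsp1, each on the strand of that gene. That table holds no exons, and its build differs from the rn4 build named in the submitters' processing notes, so no coordinates are printed. Of the 693 mature sequences in the table, 2 carry the seed UCAAGUA at bases 2 to 8, and these are miR-26a-5p and miR-26b-5p. Among the 410 measured names with a sequence there, miR-26b-5p was nearest to miR-26a-5p, at an edit distance of 2, and the next, miR-101a-5p, was at 9. Whether the counting could tell the 5p arms apart is not given in the sources used here, so the split of reads between them is uncertain.

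Values are reads per 1000000 over the miRNA names of a library (RPM). Most low values of a library are whole multiples of a single amount, taken here as the value of 1 read, which gives 47843 to 94979 reads per library. A read was thus worth 10.5 to 20.9 RPM and 3 reads, used as the floor, 31.6 to 62.7 RPM per library. The libraries carry no molecular identifiers, so floors and intervals cover counting error only. CPF replicate 1 stands apart in some other miRNAs, for example with 14435 RPM of miR-153-3p, which did not exceed 693 RPM elsewhere.

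miR-26a-5p made up nearly the whole family signal. Of 8703 family reads over the 22 libraries, 8660 were miR-26a-5p, 39 miR-26b-5p and 4 miR-26b-3p. The share of miR-26a-5p was 99.5% (exact binomial 95% interval 99.3 to 99.6), that of miR-26b-5p 0.448% (0.319 to 0.612) and that of miR-26b-3p 0.0460% (0.0125 to 0.118). In control libraries alone miR-26b-5p took 0.521% of family reads (0.331 to 0.781), and in CPF libraries 0.373% (0.213 to 0.605), and these intervals overlap. The order of the members, with miR-26a-5p first and miR-26b-3p last, was thus the same in each group. RPM is not scaled by length, but the mature arms differ by no more than 1 base.

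By RPM, miR-26a-5p was among the higher names in these libraries. In control libraries it ran from 4610 to 7144 RPM with a median of 5396, and in CPF libraries from 4410 to 6054 RPM with a median of 5146. The groups overlapped over most of their range. Replicates 4, 7 and 11 of the control group lay above the highest CPF library, and CPF replicates 9 and 10 lay below the lowest control library. In reads this was 399 per control library and 388 per CPF library on average. Its share of RPM was 0.563 ± 0.0744% in the control group and 0.520 ± 0.0507% in the CPF group (SD, n = 11 each). By the mean over all libraries it ranked 22nd of the 468 names, and its rank within a library ran from 19 to 25. Whether the order of different miRNAs by RPM follows their amounts in the tissue was not tested.

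**Figure D1:**
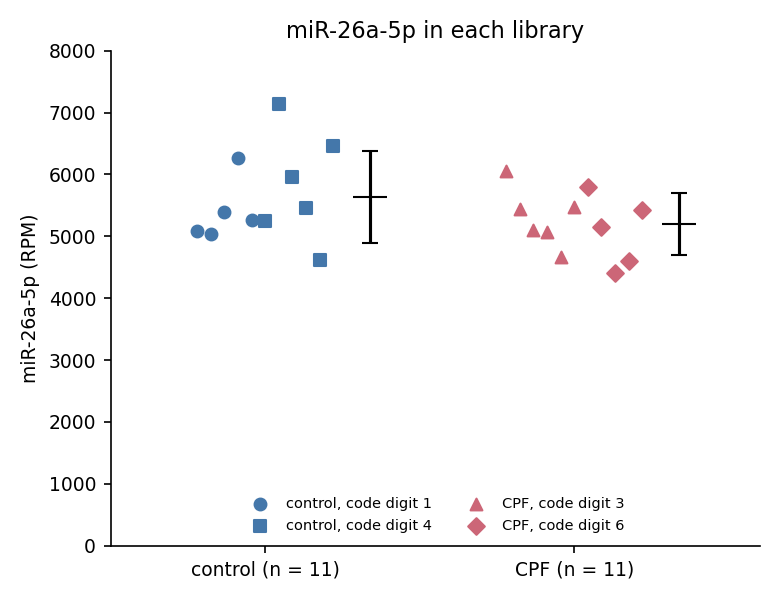
RPM of miR-26a-5p (y axis) in each of the 11 control and 11 CPF libraries (points, x axis by group, marker shape by the first digit of the library code), with the group mean and SD as a black bar. The control libraries spread from 4610 to 7144 RPM and the CPF libraries from 4410 to 6054 RPM, so the groups overlap.

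The main comparison asked whether 21 days of CPF changed these miRNAs in the hippocampus. miR-26a-5p averaged 5628 ± 744 RPM with vehicle and 5199 ± 507 RPM with CPF (SD, n = 11 each). The log2 difference, CPF minus control on the log2(RPM + 1) scale, was -0.11 (SE 0.0715, 95% interval -0.26 to 0.04), or 0.927-fold with an interval of 0.837 to 1.03. It did not pass the test (limma over all tested miRNAs, adjusted p = 0.788), and 6 of 11 CPF libraries lay below the control median. Permuting the group labels (permutation test, two-sided, on mean RPM) gave p = 0.132 (adjusted over the 2 members compared, 0.155). The interval covers no difference and a fall to 0.837-fold.

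Of 273 miRNAs tested, 2 passed in this comparison (0.733%), and 18 had an unadjusted p under 0.05. The members tested were miR-26a-5p and miR-26b-5p. Of these, 0 passed and 0 had an unadjusted p under 0.05, and by p-value miR-26a-5p stood at place 46 of the 273. The median log2 difference of all tested miRNAs was 0.02. Without CPF replicate 1, the library that stands apart, the log2 difference of miR-26a-5p was -0.13 (limma adjusted p = 0.65). In bulk tissue, fewer cells of a type and less of a miRNA per cell cannot be told apart.

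**Figure D2:**
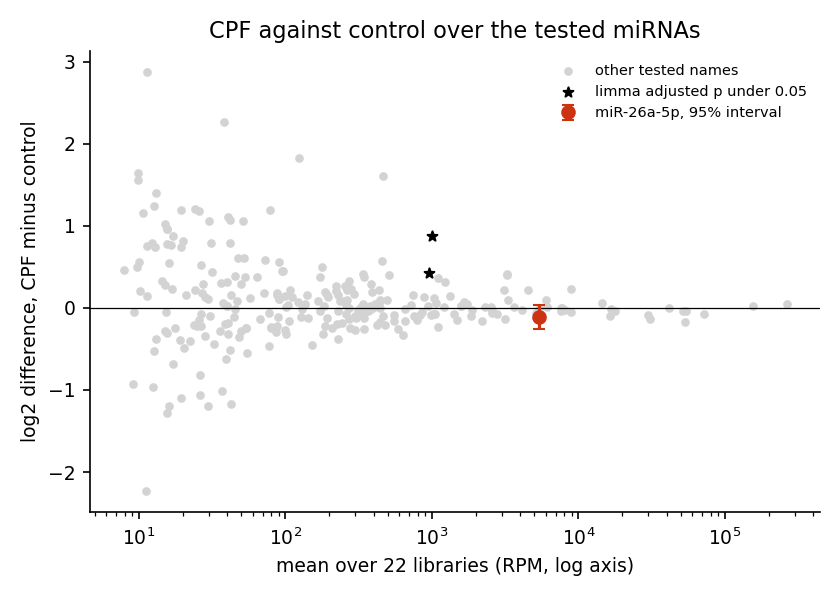
Log2 difference between CPF and control libraries (y axis) against the mean RPM over 22 libraries (x axis, log scale) for the tested miRNAs, with miR-26b-5p left out because its groups average under 3 reads. miR-26a-5p (red, with its 95% interval of -0.26 to 0.04) lies near the 0 line, and the 2 miRNAs that passed are stars.

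miR-26b-5p, which shares the seed of miR-26a-5p, was close to the limit of detection. It was present in 10 of 11 control and 11 of 11 CPF libraries, mostly as 1 to 3 reads. In control libraries 1 had 0 reads, 4 had 1, 1 had 2, 3 had 3 and 2 had 4. In CPF libraries 7 had 1 read, 3 had 2 and 1 had 3. At least 3 reads were thus found in 5 control libraries and in 1 CPF library.

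The levels of miR-26b-5p were 0 to 56.3 RPM in control (median 29.9, mean 29.4 ± 18.9, SD, n = 11) and 10.5 to 40.1 RPM in CPF (median 16.6, mean 20.1 ± 9.51, SD, n = 11). The groups overlapped, and both means lay under the floor, so no fold is given. Summed over a group there were 23 reads in control (exact Poisson 95% interval 14.6 to 34.5) and 16 in CPF (9.15 to 25.98), counting error only. The difference did not pass the test (limma adjusted p = 0.972). The two-sided permutation test of mean RPM gave p = 0.155 (adjusted over the 2 members, 0.155). At this depth a change of miR-26b-5p was neither shown nor excluded.

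miR-26b-3p, the opposite arm of the same hairpin, was found as a single read in control replicates 4 and 7 and in CPF replicates 6 and 9, and stood at 0 in the other 18 libraries. Its 2 reads per group give means of 2.51 ± 5.59 RPM in control and 3.41 ± 7.65 RPM in CPF (SD, n = 11 each), under the floor. Each of these 4 libraries also held at least 1 read of miR-26b-5p, as did 21 of the 22 libraries in all. It was below the minimum of 10 RPM in 11 libraries and was not tested. Over all libraries 39 reads came from the 5p arm of miR-26b and 4 from its 3p arm.

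**Figure D3:**
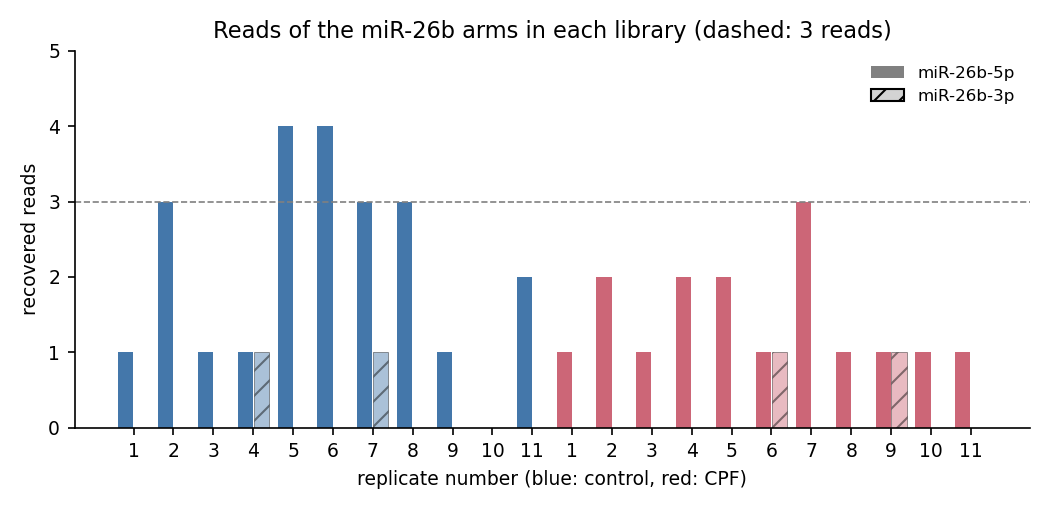
Recovered reads (y axis) of miR-26b-5p (solid bars) and miR-26b-3p (hatched bars) in each library (x axis, replicate number, control in blue and CPF in red), with the floor of 3 reads dashed. miR-26b-5p reaches 3 or more reads in 5 control libraries and 1 CPF library, and miR-26b-3p never exceeds 1 read.

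The summed family followed its main member, at 5660 ± 752 RPM in control (range 4610 to 7202) and 5223 ± 506 RPM in CPF (range 4452 to 6064; SD, n = 11 each). The first digit of the library code splits each group, with digits 1 (n = 5) and 4 (n = 6) among the controls and digits 3 (n = 6) and 6 (n = 5) among the treated, and the labels do not say what it stands for. miR-26a-5p averaged 5408 ± 498 RPM at digit 1, 5812 ± 905 at digit 4, 5302 ± 472 at digit 3 and 5075 ± 574 at digit 6. The control libraries of digit 4 had the highest mean and the widest spread, and the CPF libraries of digit 6 the lowest mean.

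Each digit stood in a single group, so a contrast of CPF and control libraries by digit also compared different digits. The log2 difference of miR-26a-5p was -0.03 for digit 3 against 1 (95% interval -0.24 to 0.18) and -0.19 for digit 6 against 4 (-0.40 to 0.02), with limma adjusted p of 0.984 and 0.648. With the other matching it was -0.12 for digit 3 against 4 and -0.09 for digit 6 against 1 (limma adjusted p = 0.882 and 0.958). The direction was the same in these 4 contrasts, which share libraries and so are not independent. None passed, where 0.366%, 0.366%, 0% and 0.733% of tested miRNAs did. The CPF difference itself did not pass as different between the digit pairs, at -0.16 (-0.46 to 0.14, limma adjusted p = 0.865) for the first matching and 0.03 (-0.27 to 0.33, limma adjusted p = 0.99) for the second. Inside the control group digit 4 was above digit 1 by 0.09 (limma adjusted p = 0.965), and inside the CPF group digit 6 differed from digit 3 by -0.07 (limma adjusted p = 0.954).

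The spread of miR-26a-5p between libraries was larger than counting gives. Its coefficient of variation within groups was 11.8%, against 5.09% from counting alone, a ratio of 2.31. Among 19 other tested miRNAs within a factor of 2 of its level, this coefficient ran from 7.80 to 99.5% with a median of 14.0%, and 7 of the 19 had a lower value. miR-26a-5p was thus of middling spread for its level. miR-26b-5p had a coefficient of 60.3%, below the 75.7% that counting alone gives at its level, so its spread between libraries cannot be separated from counting error. Between the highest and the lowest library miR-26a-5p differed 1.62-fold.

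**Figure D4:**
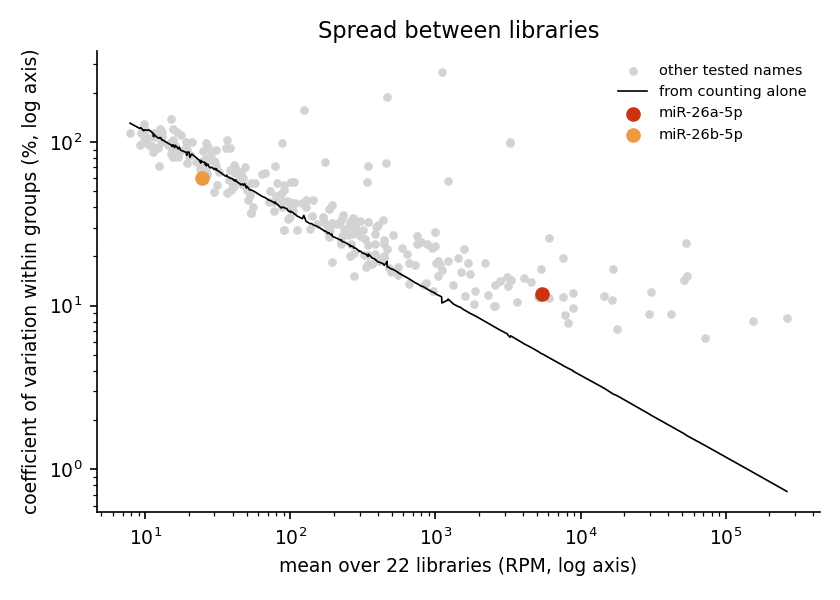
Coefficient of variation within groups in percent (y axis, log scale) against the mean RPM (x axis, log scale) for the tested miRNAs, with the value expected from counting alone as a line. miR-26a-5p (red) lies at 11.8%, above the 5.09% of the line, and miR-26b-5p (orange) lies at 60.3%, below its 75.7%.

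In the order of mean levels, miR-26a-5p (5414 ± 659 RPM, SD, n = 22) stood between miR-434-5p (6038 ± 683) and miR-136-3p (5369 ± 883), both from the imprinted Dlk1-Dio3 region. The means of miR-136-3p, miR-99b-5p (5106 ± 578), miR-434-5p and miR-101a-3p (6083 ± 1534) each lay within their own SD of its mean. Library by library, miR-136-3p was lower than miR-26a-5p in 7 of 22, miR-99b-5p in 15, miR-434-5p in 6 and miR-101a-3p in 8. miR-24-3p (7575 ± 838) was higher than miR-26a-5p in 22 of 22 libraries, and miR-22-3p (4562 ± 700) was lower in 18 of 22.

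The miRNAs whose levels ran most like miR-26a-5p were sought among 72 other names with a mean of at least 500 RPM, by Pearson's r of log2(RPM + 1) over the 22 libraries. The highest values were those of miR-30e-5p (0.719), miR-24 (0.709), miR-338-3p (0.632), miR-125a-5p (0.621) and miR-29a-3p (0.572), and Spearman's rho for the same 5 was 0.596, 0.659, 0.627, 0.659 and 0.444. The lowest were those of miR-3557-5p (-0.678), miR-143-3p, abundant in smooth muscle (-0.675), and miR-130a-3p (-0.593). The median over the 72 was 0.142. Each of these 8 kept its sign inside the control group and inside the CPF group, for example 0.765 and 0.532 for miR-30e-5p and -0.567 and -0.729 for miR-3557-5p. The 8 were picked for extreme r over these same libraries, so the kept signs are no independent support. miR-24 and miR-24-3p stand under separate names with close levels, so their split is uncertain. These are descriptions over libraries that differ in depth (47843 to 94979 recovered reads) and share a fixed total RPM, in which a name that fills much of a library lowers all others. miR-143-3p took 21.9 to 31.2% of RPM.

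In all, 7 relations were computed between the RPM of miR-26a-5p and library measures, and a pair of them again after the RPM were recomputed without miR-143-3p, so p-values were adjusted over 9. The plan named no test of these relations. miR-143-3p, and miR-338-3p among the oligodendrocyte markers, were already extremes of the likeness measure on these libraries. The p-values are not adjusted over the 72 names of that measure and are no independent support. With the summed oligodendrocyte markers (4 names of miR-338 and miR-219, all tested, none at 0, 47329 to 90059 RPM in control and 33453 to 81828 RPM in CPF), r was 0.666 (permutation p = 0.00092, adjusted 0.00276) and rho 0.627 (permutation p = 0.00247, adjusted 0.0222). Of that sum 93.8% was miR-338-3p. In the likeness measure above, on the log2 scale, the r of miR-338-5p was 0.297 and that of miR-219-2-3p 0.233, nearer the median of 0.142. Both lay below 0 within the control libraries (-0.0855 and -0.0975). Within the CPF libraries they were 0.51 and 0.555, against 0.6 for miR-338-3p. miR-219-5p lay under the 500 RPM minimum. The r of the sum was 0.689 within control and 0.646 within CPF libraries. Without control replicate 7 and CPF replicate 1, the libraries farthest from the median of these markers, r was 0.421 (permutation p = 0.0642, n = 20) and did not pass, so the call for r rests on those 2 libraries. Recomputed without miR-143-3p it was 0.535 (permutation adjusted p = 0.0241), or 0.301 without those 2 libraries (permutation p = 0.199).

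With miR-143-3p itself, r was -0.673 (permutation p = 0.00063, adjusted 0.00276) and rho -0.487 (permutation p = 0.0214, adjusted 0.0481), with -0.775 in control and -0.647 in CPF libraries. Without CPF replicates 1 and 9, farthest in miR-143-3p, r was -0.603 (permutation p = 0.00529, n = 20). With miR-26a-5p recomputed over the other names, r was -0.50 (permutation adjusted p = 0.0335), rho -0.327 (permutation adjusted p = 0.174) and r without those 2 libraries -0.438 (permutation p = 0.0529). The sum of the vessel markers is mostly miR-143-3p and gave -0.672 (rho -0.487; permutation adjusted p = 0.00276 and 0.0481). Recovered reads per library (r = 0.172, rho = 0.0762, permutation adjusted p = 0.438 and 0.737) did not pass. Nor did the marker sums of neurons (r = -0.308, rho = -0.292, permutation adjusted p = 0.184 and 0.211), choroid plexus (-0.337 and -0.337, 0.149 and 0.174) and microglia and white blood cells (-0.348 and -0.382, 0.149 and 0.144). Of the neuron sum 77.4% was miR-9a-5p (-0.344 in the likeness measure). Of the 6 neuron markers in that measure 4 had values above 0, a share near that of all names in it (44 of 72). The 4 were miR-138-5p (0.528), miR-9a-3p (0.488), miR-124-3p (0.267) and miR-128-3p (0.219). miR-128 was at -0.285. The values of miR-124-3p (0.685 in control, -0.268 in CPF libraries), miR-128-3p (-0.391 and 0.312) and miR-128 (-0.7 and 0.0529) changed sign between the groups.

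**Figure D5:**
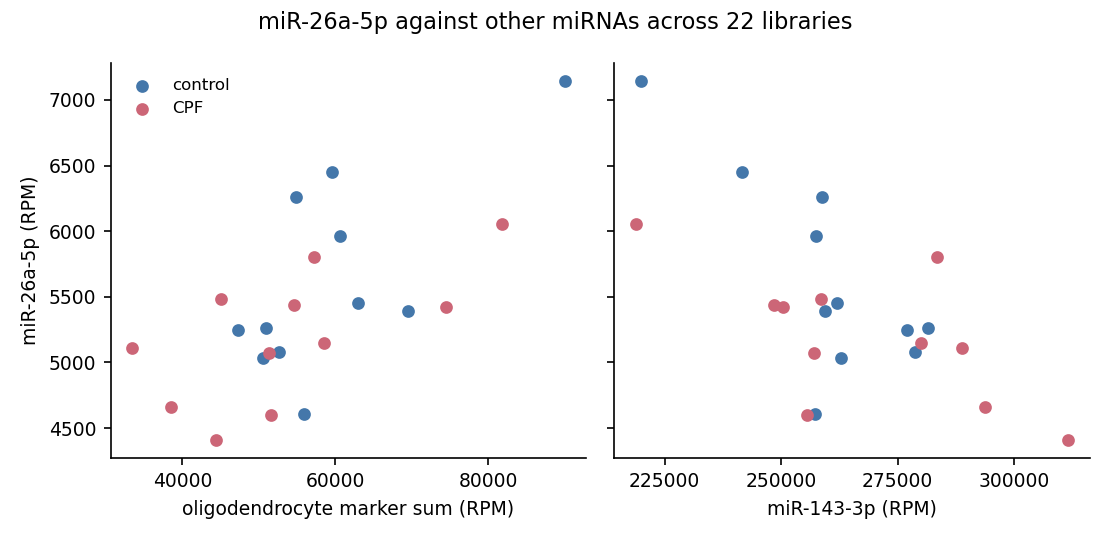
RPM of miR-26a-5p (y axis) against the summed oligodendrocyte markers (left) and miR-143-3p (right), both in RPM, 1 point per library, control in blue and CPF in red. Control replicate 7, the highest point at 7144 RPM, is also the highest in oligodendrocyte markers, and CPF replicate 9, the lowest at 4410 RPM, is the highest in miR-143-3p.

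The part of oligodendrocyte content in the level of miR-26a-5p was not tested. The marker sums of choroid plexus reached 6103 RPM in CPF libraries against at most 599 RPM in control libraries. Without CPF replicates 7, 8 and 9, which were high in those markers in earlier results, the log2 difference of miR-26a-5p was -0.10 (limma adjusted p = 0.934), close to that with all libraries.

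Other miRNAs of the circuits in which miR-26 acts gave a setting for these values. miR-384-5p, its partner in long-term potentiation, had lower mean RPM, at 2977 to 4881 RPM in control (median 4207) and 3261 to 5075 RPM in CPF (median 3855). Its mean was 4140 ± 575 and 4065 ± 636 RPM (SD, n = 11 each), and the log2 difference of -0.03 did not pass (limma adjusted p = 0.972). Its opposite arm miR-384-3p was at 88.0 ± 28.5 and 67.5 ± 30.8 RPM (limma adjusted p = 0.788). Neither of the 2 arms tested passed.

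In the list of neuronal identity miRNAs around REST (miR-9, miR-124, miR-132 and miR-212), 2 of 8 tested names rose in CPF libraries, 6 did not pass, and the median log2 difference was 0.29, against 0.02 for all tested miRNAs, of which 0.733% passed. Over the 6 of these names that averaged at least 3 reads in a group the median was 0.05, against 0.01 over the 203 such names in all, and miR-132-5p and miR-124-5p averaged fewer. The names that rose were the activity-induced neighbours miR-132-3p, at 698 ± 159 RPM with vehicle and 1292 ± 362 with CPF (log2 difference 0.87, limma adjusted p = 0.00131), and miR-212-5p, at 820 ± 106.3 and 1101 ± 129 RPM (0.43, limma adjusted p = 0.00456). The most abundant name of that list, miR-9a-5p, which promotes neuronal differentiation, was at 52435 ± 7700 and 50852 ± 7160 RPM, and miR-9a-3p at 3261 ± 281 and 3011 ± 511 RPM, and neither passed (limma adjusted p = 0.954 and 0.788). miR-9b-3p was at 0 in all libraries that hold its row. The 2 names that rose in this list are the only tested miRNAs that passed. The list was chosen with earlier results of these data known, so its share of passing names and its median are no independent support.

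Among miRNAs linked to Ezh2, a histone methyltransferase that miR-26a is known to target, 0 of 3 passed (median 0.01), with miR-101a-3p at 6057 ± 1540 and 6109 ± 1602 RPM (limma adjusted p = 0.983) and miR-101a-5p at 46.9 ± 32.6 and 37.6 ± 21.8 RPM (limma adjusted p = 0.974). The remaining name, miR-101b-3p, named after its values were seen, was at 44.3 ± 16.4 and 29.4 ± 19.5 RPM (limma log2 difference -1.01, adjusted p = 0.788), or about 3.18 and 2.18 reads per library. Among those linked to Bdnf, a neurotrophin, 0 of 4 passed (median -0.12) and all 4 log2 differences were below 0, as were 46.9% of those of all tested miRNAs, with miR-30a-5p at 1914 ± 209 and 1780 ± 165 RPM (limma adjusted p = 0.806) and miR-30a-3p at 852 ± 112 and 804 ± 111 RPM (limma adjusted p = 0.917). miR-195-5p of that list averaged under 3 reads in both groups. Its mean RPM was higher in CPF libraries (18.6 against 16.5), though its log2 difference was -0.25. miR-30a-5p and miR-30a-3p are arms of the same hairpin, so these names are not all independent. SDs are over 11 libraries per group throughout.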

How the data were processed

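The authors deposited 1 table per library, in reads per 1000000 (RPM) for each miRNA, per the file headers. Per the labels' protocols, total RNA went into TruSeq small RNA libraries and was read on a HiScanSQ. Tools named in the submitters' processing notes, with no role stated, are Bowtie, cutadapt 1.2, CASAVA 1.8.2 and Partek 6.6, and the build named is rn4. How reads that match several names were handled, whether strand was used and which annotation served is not given in the sources used here.

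A full table has 484 rows and 468 names. Rows of the 13 names that stand on several rows were summed. The table of control replicate 2 has 448 rows, none of the missing ones a member, and names missing there were fitted on the other libraries. The value of 1 read in a library was fitted to its low values. Within 0.05 read, 92.5 to 97.5% of these were whole reads, and so were all 66 member values.

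log2(RPM + 1) was modelled with limma 3.58.1 (trend, R 4.3.3) for names that reached 10 RPM in 11 or more libraries, two-sided, with Benjamini-Hochberg adjustment over all of them and a threshold of 0.05. Permutation tests used 100000 resamples (scipy 1.17.1). The fit was tested on simulated data. Named miRNAs are the members, the 3 tested names above and below miR-26a-5p in level, the 5 most and 3 least like it, and, per list of related miRNAs, the 2 most abundant names and any that passed. A further planned list is not reported here. The members and lists were chosen with earlier results of these data known.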

Additional observations from a re-analysis of the deposited data

Results flagged for a closer look

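miR-26b-3p stood out within each set of libraries that share a first code digit, because a single library held 1 read and the others 0. The values were 13.2 RPM at digit 1, 16.6 RPM at digit 3, 14.4 RPM at digit 4 and 20.9 RPM at digit 6. Each is a single read, below the floor of 3 reads. Chance marks about 1 in 20 sets in this way where values are continuous, and a count that is nearly always 0 is marked by any read.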

How the results depend on the processing

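The log2 difference of miR-26a-5p stayed below 0 and did not pass in any setting run. It ranged from -0.14 (without control replicate 10) to -0.07 (without control replicate 7) with 1 library left out at a time (limma adjusted p 0.65 to 0.934), and from -0.19 (code digit 6 against 4) to -0.03 (3 against 1) in 13 other settings (adjusted p 0.718 to 0.976). The number of miRNAs called was 2 to 3 with each library left out, and 1 in each of the fits on a single pair of code digits (3 against 1, 6 against 4, 3 against 4 and 6 against 1), which hold fewer libraries, against 2 in the main comparison. Other pseudocounts and filters, median-ratio scaling and unsummed rows called 2 as well. So did RPM recomputed without miR-143-3p, a setting chosen after seeing the data (miR-26a-5p at -0.09, adjusted p = 0.849).

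With the replicate number as a block 2 miRNAs were called and miR-26a-5p was at -0.11 (limma adjusted p = 0.809). The numbers do not pair the libraries: deviations of same-numbered libraries correlated at -0.0867 to 0.193, over 0.1 in 2 of 11 pairs, and 1 of 11 correlated best with its own number. The planned count tests (edgeR, DESeq2) were not run, because 9 of the 22 tables did not pass a strict check for whole reads. Depth limits miR-26b-5p and miR-26b-3p, whose group means are under 3 reads.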
